A study of Mus musculus with 2 samples.

Results

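The genes described here encode tubulins, the proteins that assemble, fold, bind or regulate microtubules, and the kinesin, dynein and dynactin motors that run along them. They were taken by symbol from the platform's probe annotation, using only probes with 1 gene symbol, and 82 of the 13697 genes named on the array matched. The study profiled mouse embryoid bodies, 3-dimensional aggregates of differentiating embryonic stem (ES) cells, on Applied Biosystems arrays. The samples were embryoid bodies grown from Elongin A-/- ES cells and embryoid bodies grown from Elongin A+/+ ES cells. Both had received 2 µM retinoic acid for 4 days in the same serum-containing, N2-supplemented medium, so retinoic acid and its duration are shared and no untreated body was analysed here. Elongin A is the active subunit of the Elongin complex, which helps RNA polymerase II move along the gene. The labels do not say whether each ES genotype was 1 clone or several.

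Microtubules are hollow polymers of alpha- and beta-tubulin dimers. Growth starts from ring complexes of gamma-tubulin, stathmins bind free dimers and favour shrinkage, and structural microtubule-associated proteins stabilise the polymer. Most kinesins walk towards the growing end and cytoplasmic dynein, helped by dynactin, walks towards the centrosome. Dividing cells build a spindle from this machinery, and neurons use particular tubulin isotypes, stathmins and motors to extend and supply their axons.

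There was 1 array per genotype, with 32440 probes, so no difference below was tested and none carries an error between cultures. Intensities are given after quantile normalisation, which sets both arrays to the same distribution. The floor is the array median, 1.03, and a measured gene is one that exceeded it on either array. Differences are on the log2 scale, Elongin A-/- minus Elongin A+/+, with values under the floor set to it, so the fold of a gene under the floor on 1 array is a lower bound, given as "at least". With 1 array each, an effect of genotype cannot be told apart from one of the ES line, the culture or the array. The only error the arrays hold is that between probes of the same gene, whose log2 differences had an SD of 0.43 (n = 224 genes above the floor on both arrays). Eloa, the Elongin A gene, had an intensity of 3.57 on the Elongin A-/- array and 3.87 on the Elongin A+/+ array, and the sources used here do not place its probe relative to the deleted part, so it checks nothing about the labels.

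Most of the microtubule machinery had similar levels on the Elongin A-/- and Elongin A+/+ arrays, with a small number of exceptions among the tubulins and stathmins. Of the 82 members, 69 were measured, 62 of them above the floor on both arrays. Tubg1 and Tubd1 were at least 2-fold higher on the Elongin A-/- array, 2 of the 69, against 6.76% of all 9568 measured genes. Tubb4a, Stmn2 and Stmn3 were at least 2-fold lower, 3 of the 69, against 5.97% of all measured genes. In either direction 7.25% of measured members were at least 2-fold apart, beside 12.7% of all measured genes. Above the floor on both arrays the shares were 4.84% of 62 members and 9.9% of 7529 genes. Most measured members lie at higher levels, where large differences were rarer. At a mean log2 level of at least 3 the share was slightly higher in members than in all genes, as given below. The median difference of measured members was -0.08, with the 25th percentile at -0.28 and the 75th at 0.18. Over all measured genes the median was -0.02 and those percentiles were -0.36 and 0.36. Differences of 7 members are bounds, and those of Dcx, Kif5a, Kifc2, Kifc3 and Map6, which did not pass 2-fold, may be larger than given. By any margin 25 members were higher and 44 lower, but this balance rests on the scaling, since with the values as deposited 38 were higher and 31 lower, and the median was 0.023.

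**Figure D1:**
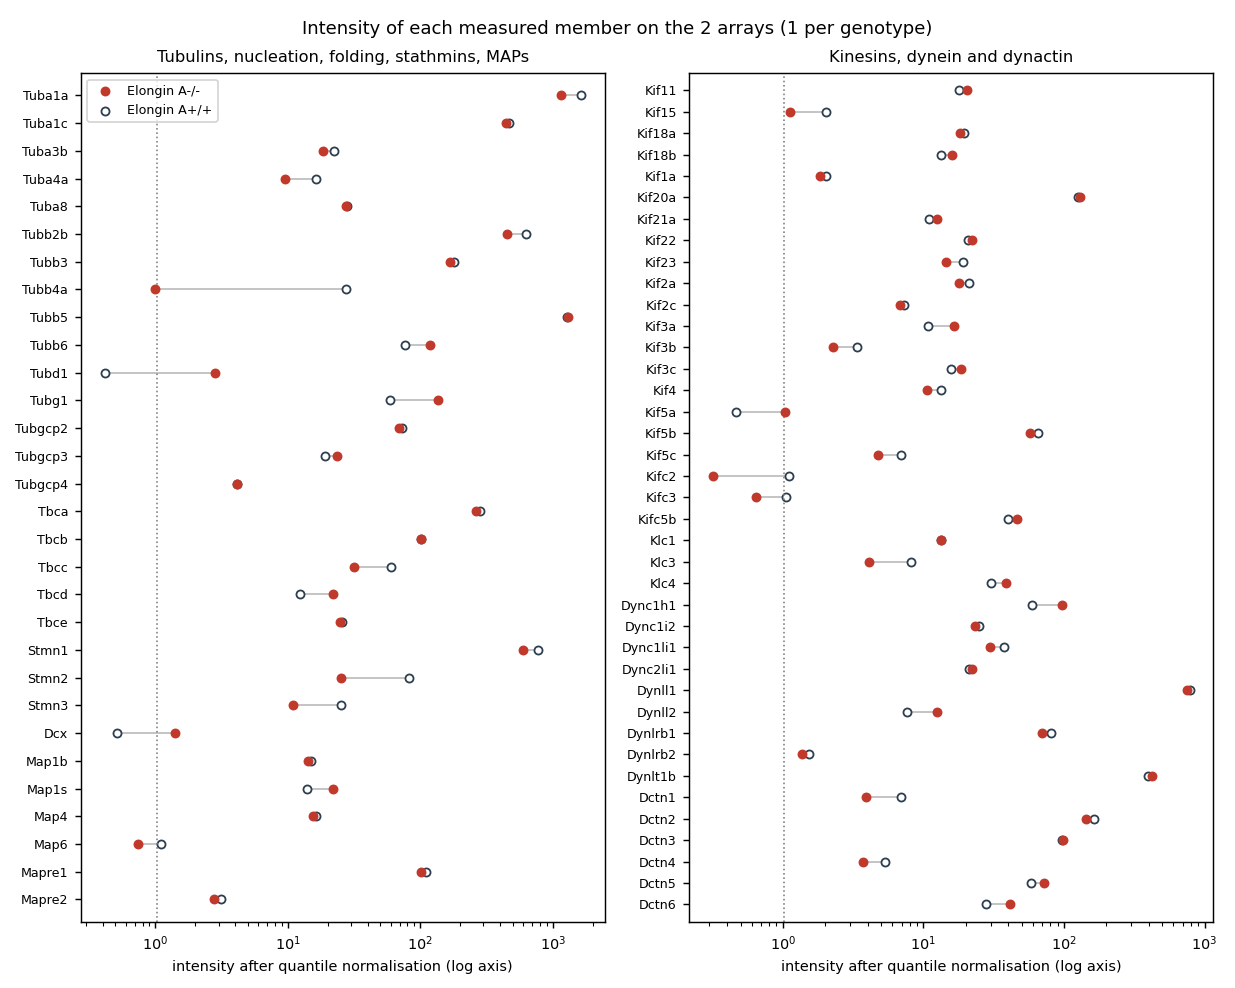
Intensity after quantile normalisation (log axis) of each of the 69 measured members, with filled points for the Elongin A-/- array, open points for the Elongin A+/+ array, a line joining them and a dotted line at the floor of 1.03. The widest gaps belong to Tubb4a (0.990 and 27.4) and Tubd1 (2.81 and 0.413), while most pairs of points lie close together.

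Alpha-tubulins, 1 chain of the tubulin dimer, were measured in 5 of 5 named genes. None was 2-fold apart, beside 9.9% of all genes above the floor on both arrays. Tuba1a, the main alpha-tubulin of the developing brain, had 1147 on the Elongin A-/- array and 1635 on the Elongin A+/+ array, a difference of -0.51. Tuba4a had 9.45 on the Elongin A-/- array and 16.3 on the Elongin A+/+ array (-0.79), the widest gap of the family. Both gaps lie between 1 and 2 times the SD between probes of a gene. Tuba3b (18.4 and 22.4), Tuba1c (442 and 469) and Tuba8 (27.5 and 28.05), given in the same order of genotypes, were closer together. All 5 were lower on the Elongin A-/- array, with a median of -0.28, though with the values as deposited 2 of the 5 were higher and the median was -0.17, and with chromosome medians subtracted 1 of the 5 was higher. Alpha-tubulin genes are close copies of each other, and 2 further probes that the annotation assigns to a pair of alpha-tubulin genes each were left out, so the split of signal among these genes is uncertain.

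Beta-tubulins, the other chain of the dimer, held the widest difference of all members. Tubb4a, an isotype used mainly in the brain, lay under the floor, at 0.990, on the Elongin A-/- array and had 27.4 on the Elongin A+/+ array, so it was at least 26.7-fold lower. This bound follows the floor, and its log2 difference of -4.74 became -2.39 with the floor at the 75th percentile. The remaining isotypes lay within 2-fold. Tubb3, the isotype most used as a marker of neurons, had 168 on the Elongin A-/- array and 179 on the Elongin A+/+ array (-0.09). Tubb2b, an isotype of neural progenitors and young neurons, had 449 on the Elongin A-/- array and 634 on the Elongin A+/+ array (-0.50). Tubb5, which is widely used by dividing cells, had 1313 on the Elongin A-/- array and 1275 on the Elongin A+/+ array (0.04). Tubb6 had 119 on the Elongin A-/- array and 77.3 on the Elongin A+/+ array (0.62), and was the only beta-tubulin higher by more than the SD between probes. The 3 neural isotypes had unequal differences, from a bound of -4.74 for Tubb4a to -0.09 for Tubb3. Each of these values comes from 1 probe.

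The promoters of Tubb4a, Tubb3 and Tubb5 are shown because these isotypes span the widest and the smallest differences of the family. Each run is the 250 bases before the annotated start in RefSeq (GRCm38.p6), 5′ to 3′ on the strand of the gene, with matches to any of 5 motifs in capitals. The motifs were TATAAA for the TATA box, CCAAT for the box of that name, GGGCGG for the GC box, TTTGAA for the cell cycle element called CHR and CAGCTG for an E-box, searched on both strands. None of the 5 overlaps another in the sequences shown.
Tubb4a, chr17:57087601-57087850, minus strand: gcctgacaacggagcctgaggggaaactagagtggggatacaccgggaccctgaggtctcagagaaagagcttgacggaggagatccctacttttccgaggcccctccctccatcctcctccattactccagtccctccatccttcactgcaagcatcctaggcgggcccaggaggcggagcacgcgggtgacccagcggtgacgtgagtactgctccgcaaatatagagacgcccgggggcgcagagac
Tubb3, chr8:123411303-123411552, plus strand: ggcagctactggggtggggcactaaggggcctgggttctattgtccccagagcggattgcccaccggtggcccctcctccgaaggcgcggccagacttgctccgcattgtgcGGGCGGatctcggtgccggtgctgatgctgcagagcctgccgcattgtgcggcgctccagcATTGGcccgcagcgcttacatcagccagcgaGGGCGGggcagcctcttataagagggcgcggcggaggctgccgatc
Tubb5, chr17:35838302-35838551, minus strand: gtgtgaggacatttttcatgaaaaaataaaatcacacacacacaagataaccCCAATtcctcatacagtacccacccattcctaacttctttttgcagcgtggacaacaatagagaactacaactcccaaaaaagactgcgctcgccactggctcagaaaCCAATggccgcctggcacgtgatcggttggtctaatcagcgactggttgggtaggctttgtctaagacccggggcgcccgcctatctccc

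The window of Tubb3 held GC boxes at 138 and 46 bases before the start and a CCAAT box on the opposite strand at 77 bases. The window of Tubb5 held CCAAT boxes at 198 and 90 bases before the start. In the Tubb4a window none of the 5 motifs was present in these letters. Promoter windows were at hand for 63 of the 82 members. A GC box was found in 33 of these 63 genes (52.4%), beside 45.8% of 17485 protein-coding genes, and a CCAAT box in 27 (42.9%), beside 39.5%. TATA boxes were in 7 (11.1%, beside 13.7%), CHR elements in 9 (14.3%, beside 16.9%) and E-boxes in 6 (9.52%, beside 13.8%).

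Gamma- and delta-tubulin, Tubg1 and Tubd1, were at least 2-fold higher on the Elongin A-/- array, and the 3 measured ring complex proteins lay within 2-fold. Tubg1, the gamma-tubulin from which microtubules are nucleated, had 136 on the Elongin A-/- array and 58.6 on the Elongin A+/+ array, 2.32-fold higher (1.22). Tubd1, the delta-tubulin needed for centriole triplets, had 2.81 on the Elongin A-/- array and lay under the floor, at 0.413, on the Elongin A+/+ array, so it was at least 2.73-fold higher. Tubg2, the other gamma-tubulin gene, was under the floor on both arrays. Of the ring complex proteins that hold gamma-tubulin, Tubgcp2 had 68.7 on the Elongin A-/- array and 72.3 on the Elongin A+/+ array, Tubgcp3 had 23.6 and 19.1, and Tubgcp4 had 4.11 and 4.12. Their differences ran from -0.07 to 0.30, and Tubgcp5 was under the floor on both arrays.

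Tubg1 and Tubd1 both lie on chromosome 11, and genes of that chromosome were higher on the Elongin A-/- array in general. The median difference of the 803 measured genes of chromosome 11 was 0.41, with 76.8% higher, and that of the 522 of chromosome 8 was 0.43, with 77.8% higher. On the chromosomes other than these the median was -0.06 and 43.7% of genes were higher. All 6 measured members on chromosome 11 were higher, namely Tubd1, Tubg1, Tbcd (0.82), Dynll2 (0.71), Kif3a (0.62) and Kif18b (0.26). Among the 63 measured members not on chromosome 11, 19 were higher and 44 lower, beside 45.8% of all measured genes there higher. Off chromosomes 8 and 11 the split was 16 higher and 41 lower of 57 members. The balance over all members rests on the scaling, as given above. With the chromosome median subtracted, Tubd1 had 1.04, Tubg1 0.80, Tbcd 0.41, Dynll2 0.29, Kif3a 0.21 and Kif18b -0.15, so that Tubd1 alone of these stayed past 2-fold. Tubb3 lies on chromosome 8, and its difference of -0.09 became -0.52 in the same way, close to those of Tubb2b (-0.40) and Tuba1a (-0.49). Members on chromosome 8 were higher in 3 of 6 cases. The part of this chromosome-wide shift in the members' differences was not tested.

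**Figure D2:**
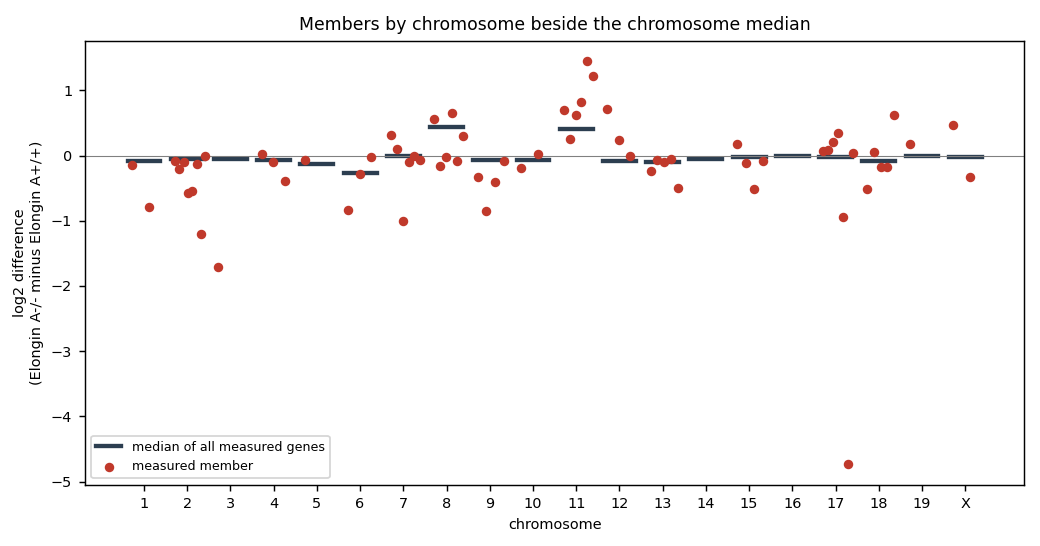
Log2 difference, Elongin A-/- minus Elongin A+/+, of each measured member (red points) by chromosome, with a bar at the median of all measured genes of that chromosome. The bars of chromosomes 8 (0.43) and 11 (0.41) stand above the others, all 6 members on chromosome 11 are above 0, and the lowest point is Tubb4a on chromosome 17.

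Tubulin folding cofactors, which assemble the dimer, went in both directions within 2-fold. Tbcc, the cofactor that triggers release of the finished dimer, had 31.5 on the Elongin A-/- array and 60.4 on the Elongin A+/+ array (-0.94), and Tbcd, which holds beta-tubulin, had 21.8 and 12.4 (0.82). Tbca, which also binds beta-tubulin, had 263 on the Elongin A-/- array and 280 on the Elongin A+/+ array. Tbcb, an alpha-tubulin cofactor, had 101 on both arrays, and Tbce, another, had 24.9 on the Elongin A-/- array and 25.7 on the Elongin A+/+ array.

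Stathmins were lower on the Elongin A-/- array in 3 of 3 measured genes, under every setting run. Stmn2, a stathmin of growing axons, had 25.1 on the Elongin A-/- array and 82.3 on the Elongin A+/+ array, 3.28-fold lower (-1.71). Stmn3, another neuronal stathmin, had 10.9 on the Elongin A-/- array and 25.1 on the Elongin A+/+ array, 2.30-fold lower (-1.20). Among the 7529 genes above the floor on both arrays, Stmn2 ranked 82 and Stmn3 ranked 222 when ordered from the lowest difference. Stmn1, the widely used stathmin of dividing and progenitor cells, had 597 on the Elongin A-/- array and 781 on the Elongin A+/+ array (-0.39), within the SD between probes. Stmn4 was under the floor on both arrays. The promoter of Stmn3 is shown because it belongs to a stathmin past 2-fold and the RefSeq table holds its window, in the same format and with the same motifs as above. None of the 5 motifs was present in it in these letters.
Stmn3, chr2:181314501-181314750, minus strand: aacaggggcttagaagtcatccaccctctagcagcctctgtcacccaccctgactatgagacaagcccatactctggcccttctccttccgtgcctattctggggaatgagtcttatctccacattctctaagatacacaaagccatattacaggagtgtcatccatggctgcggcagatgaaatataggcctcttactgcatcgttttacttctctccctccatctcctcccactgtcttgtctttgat

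Of the 5 measured structural microtubule-associated proteins, Map1b, Map4 and Map1s, above the floor on both arrays, were within 2-fold, and Dcx and Map6 have only a bound. Map1b, an early neuronal protein, had 14.2 on the Elongin A-/- array and 14.9 on the Elongin A+/+ array. Map4, the main such protein outside the nervous system, had 15.4 on the Elongin A-/- array and 16.3 on the Elongin A+/+ array. Map1s, a widely expressed relative of Map1b on chromosome 8, had 22.0 on the Elongin A-/- array and 14.1 on the Elongin A+/+ array (0.65, or 0.22 with the chromosome median subtracted). Doublecortin, Dcx, which bundles microtubules in migrating neurons, was just above the floor on the Elongin A-/- array (1.41) and under it on the Elongin A+/+ array (0.511), at least 1.38-fold higher. Setting the floor at the 25th percentile, or setting none, brought Dcx past 2-fold, upwards. Map6, which stabilises neuronal microtubules, was under the floor on the Elongin A-/- array (0.737) and just above it on the Elongin A+/+ array (1.10). Map2 of dendrites and Map7 were under the floor on both. The end-binding proteins, which track growing ends, had 102 on the Elongin A-/- array and 111 on the Elongin A+/+ array for Mapre1 and 2.78 and 3.13 for Mapre2, and Mapre3 was under the floor on both.

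Neuronal members as a list had a negative median, as did neuron markers outside the set. Of 17 neuronal microtubule genes named here 13 were measured, and Tubb4a, Stmn2 and Stmn3 passed 2-fold downwards, 3 of the 13. The share of all measured genes was 5.97%. No gene of this list passed it upwards at this floor, but Dcx and Kif5a did under a floor at the 25th percentile, and Dync1i1 joined them when none was set. The median of the list was -0.14. The median had its sign under every setting but not its size, with -0.51 when no floor was set, -0.50 for a floor at the 75th percentile and -0.09 for the deposited values. Of 34 neuron markers that are no tubulin gene, stathmin or motor, 31 were measured, 9 of which passed 2-fold downwards and none upwards, beside 5.97% and 6.76% of all measured genes, and their median was -0.65. Under a floor at the 25th percentile 12 passed downwards and 2 upwards. The difference between the lists was not tested. The measured markers summed to an intensity of 179 on the Elongin A-/- array and 371 on the Elongin A+/+ array. Isl2, Nefh and Syp were under the floor on both arrays. Widest were Neurod4 (3.13 on the Elongin A-/- array and 20.4 on the Elongin A+/+ array), Isl1 (2.24 and 10.03), Lhx5 (2.97 and 12.7) and Nhlh2 (22.2 and 90.2), transcription factors of young neurons. By any margin 25 of the 31 measured markers were lower and 6 higher. Widest of those 6 at this floor was Nhlh1, with 4.24 on the Elongin A-/- array and 2.54 on the Elongin A+/+ array. In bulk samples fewer neurons and less RNA per neuron cannot be told apart, and the part of cell makeup in the levels of Stmn2, Stmn3 and Tubb4a was not tested. Blood and endothelial markers were at least 2-fold higher in 10 of 16 measured genes and, at this floor, at least 2-fold lower in none. The shares of all measured genes were 6.76% and 5.97%. Lower by a smaller margin were Spi1 (0.345 on the Elongin A-/- array, under the floor, and 1.76 on the Elongin A+/+ array) and Klf1 (0.923, under the floor, and 1.52). Lowering the floor to the 25th percentile gave 12 higher and 1 lower of 19. No floor, a pseudocount and removed chromosome medians also gave 1 lower. The blood and endothelial list summed to 223 on the Elongin A-/- array and 38.2 on the Elongin A+/+ array, with Cdh5, Erg, Gata1, Ptprc and Tie1 under the floor on both. Mesoderm and mesenchyme markers were at least 2-fold higher in 7 of 14 measured genes and at least 2-fold lower in 1, with a median of 1.05. They summed to 290.1 on the Elongin A-/- array and 149 on the Elongin A+/+ array, of which Col3a1 gave 152 and 41.8. Eomes, Mesp1, Mesp2, Msgn1 and Tbx6 were under the floor on both. Endoderm markers went both ways, with 7 of 10 measured genes higher by any margin, 3 lower and a median of 0.81. At least 2-fold higher were 4, and at least 2-fold lower was 1. The 3 lower were Afp (1.01 on the Elongin A-/- array, under the floor, and 3.99 on the Elongin A+/+ array), Foxa1 (2.58 and 4.59) and Foxa2 (1.56 and 2.65). Widest upwards at this floor was Sox7 (14.9 and 1.25). The list summed to 82.5 on the Elongin A-/- array and 32.5 on the Elongin A+/+ array, of which Plat, on chromosome 8, gave 36.2 and 9.81. Amn, Apoa1, Fgb, Fgg, Foxa3 and Gata4 were under the floor on both.

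**Figure D3:**
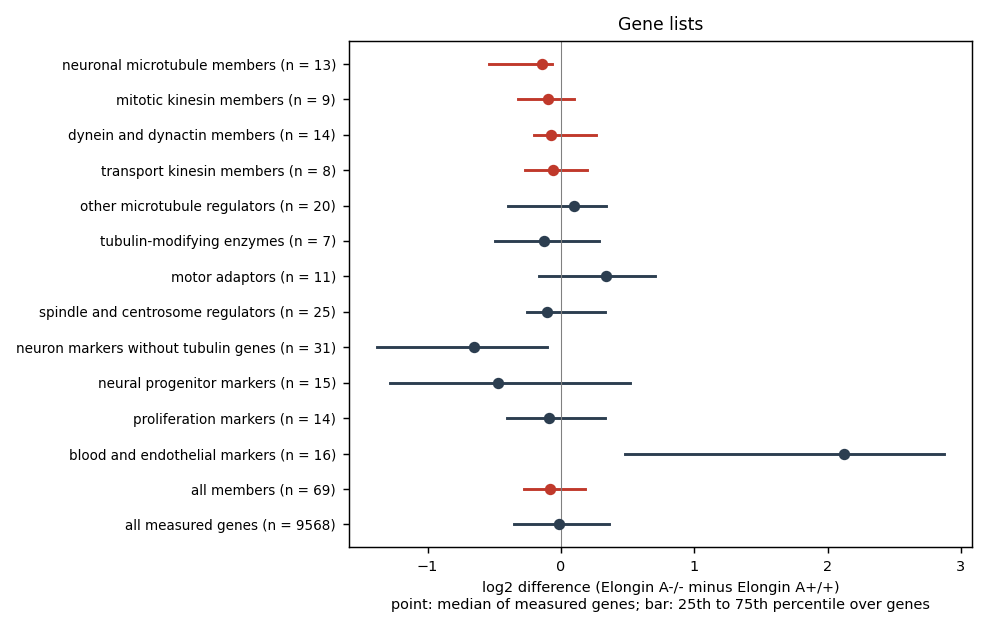
Median log2 difference (points), Elongin A-/- minus Elongin A+/+, and 25th to 75th percentile over measured genes (bars) of member lists in red and of other lists and all measured genes in dark blue, with the number of genes measured in each label. Bars cover the spread among genes, not among cultures. The 4 member lists plotted lie between -0.14 and -0.06, neuron markers at -0.65 and blood and endothelial markers at 2.12.

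Kinesins were measured in 21 of 27 named motor genes. Both arrays measured 18 of them, none 2-fold apart, beside 9.9% of all genes measured on both. Kif5a, Kifc2 and Kifc3 have only a bound. A floor at the 25th percentile brought Kif5a past 2-fold upwards and Kifc2 downwards. The mitotic kinesins, which build and separate the spindle, had a median of -0.10 over 9 measured genes, from -0.85 to 0.26, and summed to 240 on the Elongin A-/- array and 238 on the Elongin A+/+ array. Kif20a, needed for cytokinesis, had 130 on the Elongin A-/- array and 125 on the Elongin A+/+ array. Kif11, which pushes spindle poles apart, had 20.3 on the Elongin A-/- array and 17.9 on the Elongin A+/+ array. Kif15, a spindle motor that can act beside Kif11, was widest with 1.12 on the Elongin A-/- array and 2.02 on the Elongin A+/+ array, both near the floor. The others were Kif18a (18.2 and 19.4), Kif18b (15.9 and 13.3), Kif22 (22.1 and 20.7), Kif23 (14.5 and 19.2), Kif2c (6.78 and 7.28) and Kif4 (10.6 and 13.2), with the Elongin A-/- value before the Elongin A+/+ value. Proliferation markers outside the set had a median of -0.09 over 14 measured genes, of which 1 passed 2-fold, downwards. With the values as deposited the mitotic kinesin median was 0.05.

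Promoter windows of 8 mitotic kinesins were at hand. A CCAAT box was in 5 of them, a GC box in 5 and a CHR element in 4. The shares of protein-coding genes were 39.5%, 45.8% and 16.9% in that order. Kif22, a motor that pushes chromosome arms, is shown as an example, since its window, like that of Kif11, holds both elements known from cell cycle promoters. Its CCAAT boxes lie at 233 bases before the start and, on the opposite strand, at 54 bases. Its CHR elements lie on the opposite strand at 215 and 17 bases. These matches describe letters, not sites that were shown to be bound.
Kif22, chr7:127042421-127042670, minus strand: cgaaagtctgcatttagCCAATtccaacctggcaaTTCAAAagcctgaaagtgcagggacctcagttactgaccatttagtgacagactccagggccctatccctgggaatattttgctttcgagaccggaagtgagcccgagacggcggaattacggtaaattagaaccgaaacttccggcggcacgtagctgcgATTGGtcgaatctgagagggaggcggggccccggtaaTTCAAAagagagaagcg

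Transport kinesins, which carry vesicles, organelles and ciliary cargo, had a similar summed level on both arrays. Over 8 measured genes the median was -0.06, and they summed to 115 on each array, with Kif5b the largest part. Kif5b, the widely used conventional kinesin, had 57.6 on the Elongin A-/- array and 65.0 on the Elongin A+/+ array, and the neuronal Kif5c had 4.75 and 6.90 (-0.54). Kif3a and Kif3b, partners in the kinesin that supplies cilia, lay on opposite sides of 0. Kif3a had 16.6 on the Elongin A-/- array and 10.8 on the Elongin A+/+ array (0.62), and Kif3b had 2.28 and 3.38 (-0.57). Kif3c, a neuronal relative, had 18.6 on the Elongin A-/- array and 15.7 on the Elongin A+/+ array, Kif21a had 12.4 and 10.97, and Kif1a, which carries synaptic vesicle precursors, had 1.83 and 2.02. Kif5a was barely above the floor on the Elongin A-/- array (1.04) and under it on the Elongin A+/+ array (0.466). Members that work in cilia were measured in 5 of 7 named genes, with a median of 0.07, and Tubd1 was the 1 that passed 2-fold.

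Among the other kinesins, Kif2a, a depolymerising motor, had 18.01 on the Elongin A-/- array and 21.2 on the Elongin A+/+ array, and Kifc5b, of the minus-end kinesins, had 46.0 and 40.1. Kifc2 and Kifc3 were under the floor on the Elongin A-/- array (0.320 and 0.647) and just above it on the Elongin A+/+ array (1.11 and 1.04). Kif1b, Kif6, Kif9, Kif12, Kif17 and Kif27 were under the floor on both arrays, as were both probes of Kif9, the member with 2 probes. The kinesin light chains, which couple conventional kinesin to cargo, gave the member nearest to the 2-fold limit without reaching it. Klc3 had 4.09 on the Elongin A-/- array and 8.18 on the Elongin A+/+ array, just inside 2-fold. Klc1 had 13.2 and 13.3, and Klc4 38.6 and 30.4, again with the Elongin A-/- value first.

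Of the 14 measured members of the cytoplasmic dynein and dynactin list, all above the floor on both arrays, none was 2-fold apart. The share among all genes above the floor on both arrays was 9.9%, so none among 14 genes says little about the list. The median of the list was -0.08, from -0.83 to 0.71, and with the values as deposited it was 0.02. Dync1h1, the motor heavy chain, had 96.9 on the Elongin A-/- array and 59.3 on the Elongin A+/+ array (0.71). The intermediate chain Dync1i2 had 23.4 on the Elongin A-/- array and 24.8 on the Elongin A+/+ array, and the light intermediate chain Dync1li1 had 30.0 and 37.5. Dync2li1, of the dynein that works in cilia, had 22.1 on the Elongin A-/- array and 21.0 on the Elongin A+/+ array. Dync1i1, the neuronal intermediate chain, was under the floor on both. The gap of Dync1h1 exceeded the SD between probes and that of Dync1i2 (-0.08) did not.

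Dynein light chains had differences from -0.20 to 0.71. Dynll1, the light chain shared by many complexes, had 748 on the Elongin A-/- array and 783 on the Elongin A+/+ array, while its close relative Dynll2, on chromosome 11, had 12.6 and 7.70. Dynlt1b had 422 on the Elongin A-/- array and 397 on the Elongin A+/+ array, Dynlrb1 had 70.0 and 80.4, and Dynlrb2 had 1.38 and 1.53. Dynlt1b is 1 of a group of near-identical gene copies, so its signal may include theirs.

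Dynactin subunits divided evenly, 3 higher and 3 lower on the Elongin A-/- array. Dctn1, the large subunit that binds both dynein and the microtubule, had 3.89 on the Elongin A-/- array and 6.92 on the Elongin A+/+ array (-0.83), and it lies on chromosome 6, where the median of 518 measured genes was -0.26. Dctn4 had 3.73 on the Elongin A-/- array and 5.34 on the Elongin A+/+ array (-0.52). Dctn2, dynamitin, which holds the shoulder of the complex, had 143 and 164, and Dctn3 had 97.7 and 96.4. Dctn5 and Dctn6, which lie at the pointed end, had 72.6 and 41.2 on the Elongin A-/- array and 58.2 and 27.9 on the Elongin A+/+ array. Dctn6 lies on chromosome 8, and its difference of 0.56 was 0.13 with the chromosome median subtracted.

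**Figure D4:**
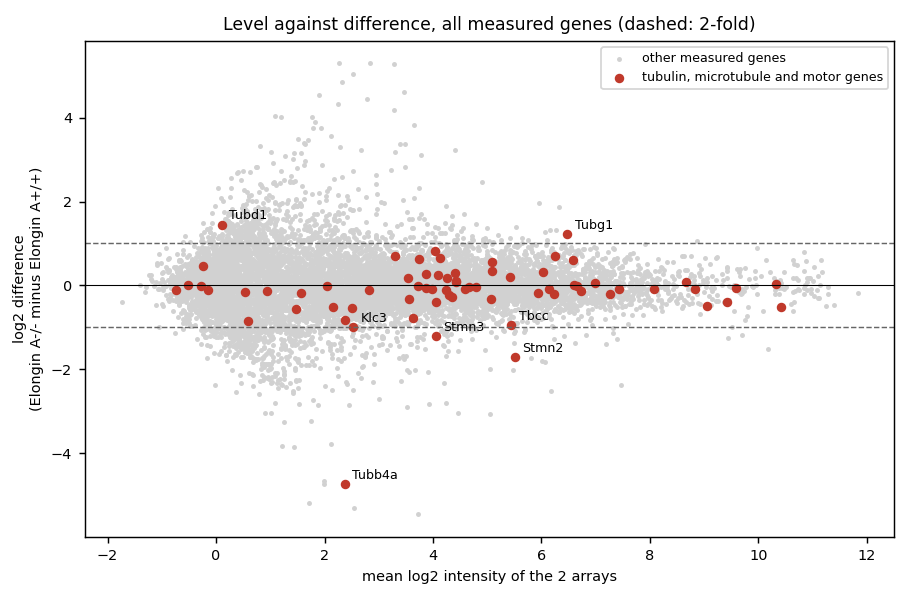
Mean log2 intensity of the 2 arrays (horizontal) against log2 difference, Elongin A-/- minus Elongin A+/+ (vertical), for all 9568 measured genes in grey and the 69 measured members in red, with dashed lines at 2-fold and names for members of at least 0.9 in size. Grey points spread more widely at low levels, and of the red points only Tubb4a, Stmn2, Stmn3, Tubg1 and Tubd1 lie beyond the dashed lines.

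Large differences were rarer at higher levels, where most measured members lie. Among genes with a mean log2 level of at least 3, 4.56% of 4149 were at least 2-fold apart, beside 3 of 51 members (5.88%), namely Stmn2, Stmn3 and Tubg1. Members with a mean under that level that passed 2-fold were the bounds Tubb4a and Tubd1.

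Genes of the pathway outside the set were counted in the same way, and 12.7% of all measured genes, or 4.56% of those at a mean log2 level of at least 3, is the share to set beside each count. Of 27 named microtubule regulators 20 were measured, and 1 passed 2-fold, downwards, while the median was 0.10. That gene was Mtus2, which lay under the floor at 0.777 on the Elongin A-/- array and had 2.73 on the Elongin A+/+ array. Hook3, an adaptor that activates dynein, had 2.70 on the Elongin A-/- array and 1.58 on the Elongin A+/+ array, and Dclk2, a relative of doublecortin, had 1.35 and 2.39. Of 11 tubulin-modifying enzymes 7 were measured and none was 2-fold apart. Svbp, the partner of the detyrosinating vasohibins, had 64.3 on the Elongin A-/- array and 101 on the Elongin A+/+ array, and Agtpbp1, which removes glutamates from tubulin, had 6.64 and 10.1.

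The list of motor adaptors also holds Kbtbd2 (-0.31), Tex14 (0.60) and Ykt6 (0.77), which have other functions. Its counts therefore do not describe adaptors alone. Kifap3 (-0.26), a kinesin-associated protein, was counted with the spindle regulators instead. Of the 11 measured genes of the adaptor list 1 passed 2-fold, upwards, and the median was 0.34. Leaving out chromosomes 6, 8 and 11, which carry Kbtbd2, Tex14, Ykt6 and Rhot1, gave a median of 0.08. A floor at the 75th percentile gave -0.03. Trak2, which links kinesin to mitochondria, had 3.90 on the Elongin A-/- array and lay under the floor, at 0.514, on the Elongin A+/+ array. Rhot1, the mitochondrial receptor of that link, lies on chromosome 11 and had 9.62 on the Elongin A-/- array and 5.86 on the Elongin A+/+ array. Spindle and centrosome regulators were measured in 25 of 26 named genes, with a median of -0.11. Haus4, of the augmin complex that branches microtubules, had 10.4 on the Elongin A-/- array and 5.02 on the Elongin A+/+ array, and Cep135, a centriole protein, had 2.59 and 5.58. These were the 2 of that list at least 2-fold apart, and neither passed with the floor at the 75th percentile.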

How the data were processed

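The authors deposited linear intensities with medians of 1.03 (Elongin A-/-) and 1.02 (Elongin A+/+); per the labels' protocols, 1 µg of RNA was labelled with digoxigenin and detected by chemiluminescence. No source used here gives their normalization, background correction or filters, and precision is limited by there being 2 arrays. Because percentiles of the arrays differed by up to -0.16 and 0.15 (log2), above a limit of 0.1, values were quantile normalised, and the floor was set at the 50th percentile. Where a gene had more than 1 probe, the brightest stood for it. Members and lists were chosen with earlier results of these data known, so a pattern already seen in these data is not independent support. Any member may be named. From other lists, up to 4 genes with the widest differences may be named, and marker genes whose presence or absence is stated. Genes named beyond these limits went against their list or fit it poorly. Of 32440 probes, 14253 had 1 symbol, 243 several and 17944 none. Chromosomes for all 82 members came from the RefSeq table (GRCm38.p6). Calls used 2-fold with no test. Counts, medians and differences were recomputed under 9 other settings of scaling, floor and probes, 1.5-fold and 3-fold limits, and 2 chromosome settings added after the data were seen. The computation was tested on simulated data with Python 3.11.15, numpy 2.4.6, pandas 2.3.3 and statsmodels 0.14.6.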

Additional observations from a re-analysis of the deposited data

How the results depend on the processing

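The counts of members at least 2-fold apart, 2 higher and 3 lower, were the same genes with the deposited values, those values centred, a loess trend removed (span 0.3), a pseudocount in place of the floor, probe means, and single-probe genes alone. Higher members numbered 4 with the floor at the 25th percentile, 1 at the 75th, 5 with no floor, 1 (Tubd1) with chromosome medians removed and 0 without chromosomes 6, 8 and 11, where Tubg1 and Tubd1 are left out by construction. Lower members numbered 4 with the floor at the 25th percentile, where Kifc2 was added, and 6 with no floor, where genes under the floor on both arrays, such as Kif17 and Mapre3, entered. At 1.5-fold 8 members were higher and 8 lower, and at 3-fold 0 and 2. With the values as deposited the median difference of members was 0.023, and that scaling moved the median of all measured genes to 0.07 and the share of higher genes among all 2-fold calls to 64.0%, against 53.1% after quantile normalisation; for members that split did not move. Over all settings the neuronal median ran from -0.51 to -0.09, the mitotic kinesin median from -0.10 to 0.05 and the dynein and dynactin median from -0.08 to 0.02. Of 69 measured members, 53 kept their sign in each setting that measured them, and the 16 that turned had differences of at most 0.30. Not every setting measured all of them. Raising the floor to the 75th percentile left 57 members, and dropping chromosomes 6, 8 and 11 left 54. Tubd1 was measured in neither of these settings, so its range below leaves them out. Tubb4a ran from -4.79 to -2.39, Stmn2 from -1.72 to -1.64, Stmn3 from -1.21 to -1.11, Tubd1 from 1.04 to 2.76 and Tubg1 from 0.80 to 1.29. No paired analysis was possible because each genotype has 1 array. Values under the floor on 1 array limit Tubb4a, Tubd1, Dcx, Kif5a, Kifc2, Kifc3 and Map6, whose differences follow the floor. With the floor at the 25th percentile the higher members added were Dcx and Kif5a, both neuronal, and with no floor Dync1i1 was added too.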

Other observations

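Genes of motile cilia, which use axonemal dynein in place of the cytoplasmic form, were near or under the floor in most cases. Of 10 named here 5 were measured, and Dnah5, Dnah8, Dnah11, Dnal1 and Dnali1 were under the floor on both arrays. Tekt2, a protein of sperm and ciliary microtubules, lay under the floor at 0.675 on the Elongin A-/- array and had 4.89 on the Elongin A+/+ array, at least 4.77-fold lower. Foxj1, the regulator of motile cilia, had 1.66 on the Elongin A-/- array and 2.27 on the Elongin A+/+ array.

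Neural progenitor markers outside the set went both ways, with 9 of 15 measured genes lower by any margin, 6 higher and a median of -0.48. At least 2-fold lower were 5 and higher 1, beside 5.97% and 6.76% of all measured genes. The list summed to 1281 on the Elongin A-/- array and 1062 on the Elongin A+/+ array, of which Vim gave 934 and 713. Hes5 (125 and 75.6) and Pax6 (12.9 and 9.32) were also higher, with the Elongin A-/- value first. Olig3, of the dorsal neural tube, had 5.71 on the Elongin A-/- array and 40.8 on the Elongin A+/+ array, and Fabp7, of radial glia, had 7.37 and 30.6. The 1 at least 2-fold higher, Irx3, lies on chromosome 8 and had 114 on the Elongin A-/- array and 45.5 on the Elongin A+/+ array. None of these differences has a replicate.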
